A study of Mus musculus with 9 samples.

Results

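Atf4, Atf5, Atf3, Ddit3, Nupr1, Cebpb, Cebpg and Cebpd encode transcription regulators of the ATF4 stress response network, and these 8 genes were taken by symbol from the 26858 genes of the count table. The table holds RNA-seq of SIX2 progenitors, the nephron-forming cells of the cap mesenchyme, which had been separated from E18.5 mouse kidneys (embryonic day) by flow sorting for eGFP. The controls were heterozygous Six2-Qpc+/- kidneys (n = 4 libraries) and the mutants were Six2-Qpc-/- kidneys (n = 5 libraries). Both genotypes carried a bacterial artificial chromosome transgene in which the Six2 promoter drives Cre recombinase fused to eGFP, and this Cre recombines a floxed allele of Uqcrq (Qpc), a subunit gene of mitochondrial complex III, so the controls had also lost 1 copy in these cells. Each library is called by the number in its label (controls 71, 72, 73 and 76, mutants 74, 75, 77, 78 and 79). Litter, sex, batch and the pooling of animals were not given, so p-values measure only the spread between these libraries. In bulk samples, a larger share of cells of another type and more RNA per cell cannot be told apart.

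The integrated stress response begins with phosphorylation of the initiation factor eIF2, which lowers translation in general while raising translation of the Atf4 message. ATF4 is a basic leucine zipper (bZIP) protein that binds DNA as a heterodimer, commonly with C/EBP proteins, and induces genes of amino acid uptake, amino acid synthesis and transfer RNA charging. It also induces further transcription regulators, among them Atf3, Ddit3 (CHOP), Nupr1 and Atf5, and in many cell types the network responds to mitochondrial dysfunction. ATF4 protein is set largely by translation, and messages alone were measured here.

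The DNA letters through which ATF4 and C/EBP proteins are known to act on their targets were looked for in RefSeq promoters (GRCm38.p6), each 250 bases before to 50 bases after a start site. The composite C/EBP-ATF motif was written as TGATGNAA and searched on both strands. It was found in 1303 of 32817 windows (3.97%), and in a window of 4.51% of genes. Windows were given for 7 of the 8 regulators, and the motif lay in those of Atf3 and Nupr1. Of 33 ATF4 target genes listed by hand, 26 had a window and 10 of these held the motif. The sequences of both regulators are shown with those of the targets Asns, which encodes asparagine synthetase, and Chac1, which encodes a glutathione-degrading enzyme, 5′ to 3′ in the orientation of each gene, with the motif in capitals.
Atf3: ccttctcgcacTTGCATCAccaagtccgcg
Nupr1: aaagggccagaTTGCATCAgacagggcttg
Asns: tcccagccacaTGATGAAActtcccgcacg
Chac1: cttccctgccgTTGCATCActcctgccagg

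The Atf3 sequence lies at chr1:191183425-191183454 on the minus strand, in an intron of a longer Atf3 transcript in GENCODE M21, and the motif begins at -110 from the RefSeq start site. The Nupr1 sequence lies at chr7:126625562-126625591 on the minus strand, in an untranslated exon of a longer Nupr1 transcript, and its motif also begins at -110. Asns carries the motif at -23 (chr6:7693214-7693243, minus strand, within an annotated untranslated exon) and Chac1 at -193 (chr2:119351038-119351067, plus strand, intergenic). In Atf3, Nupr1 and Chac1 the letters in capitals are the same and read in the reverse orientation of the motif as written, while Asns carries the forward orientation. The cyclic AMP response element TGACGTCA, present in 1.79% of windows, and the C/EBP palindrome TTGCGCAA, present in 0.183%, were in none of the regulators' windows. A match of letters is a description of the window and not a measurement of binding.

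Of the 8 regulators, 7 were higher in mutant than in control SIX2 progenitors, and the change ranged from 1.54-fold for Cebpg to 24.4-fold for Nupr1. Atf5, the eighth, was not past the threshold. In edgeR's quasi-likelihood test with an adjusted p (Benjamini-Hochberg) under 0.05, 7.82% of the 14990 genes tested were higher in mutants and 7.02% were lower, 14.8% in all. The regulators were all among the genes tested. Their median log2 fold change was 1.14, compared with -0.01 over all genes tested, of which 49.2% had a positive value. In Atf4, Atf3, Ddit3, Nupr1 and Cebpg the lowest mutant library exceeded the highest control, an arrangement found in 7.5% of genes tested. Fold changes are of CPM (counts scaled to 1000000 per normalized library) unless stated otherwise.

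**Figure D1:**
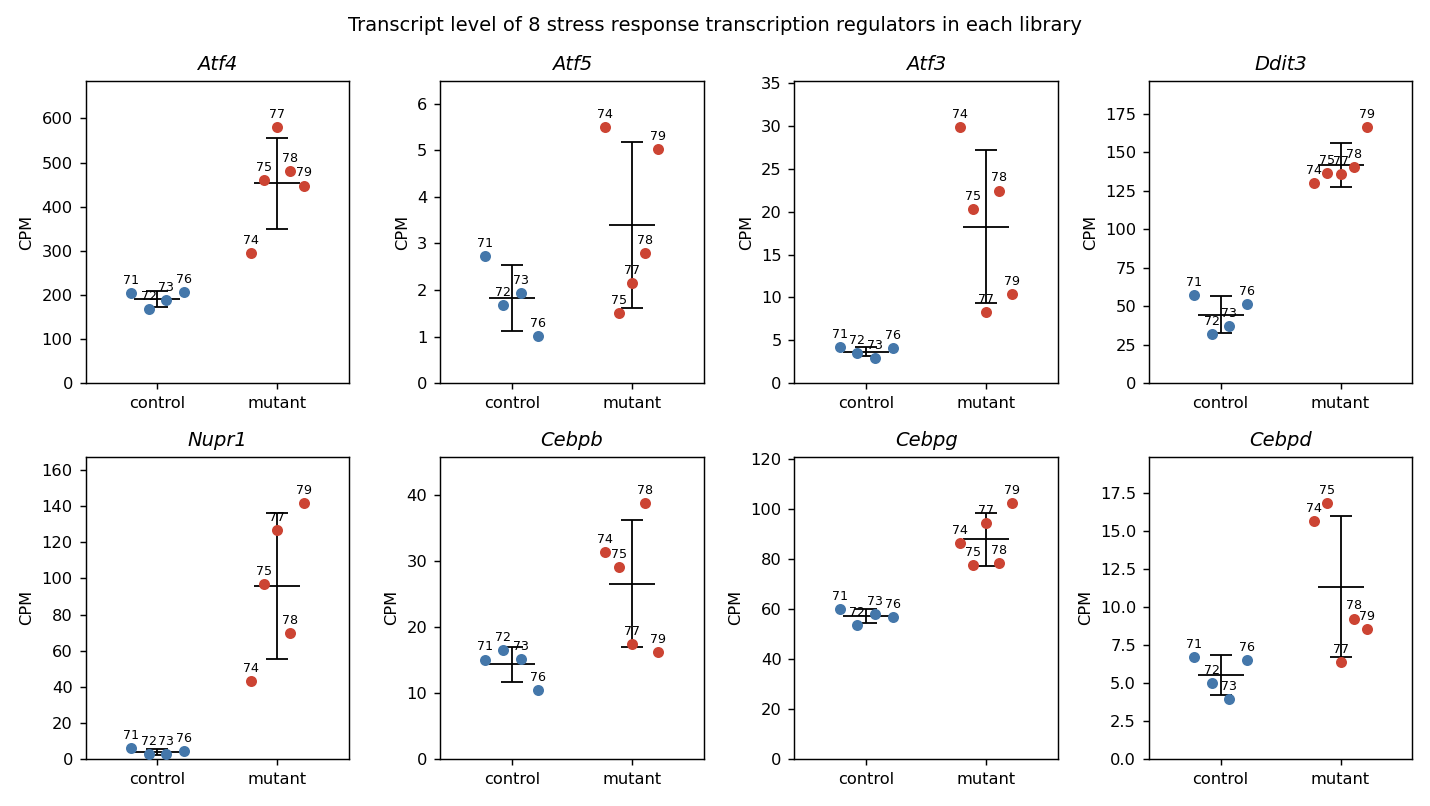
Level of each of the 8 regulators in each library, in CPM (vertical axes start at 0 and differ between genes), with the mean and SD of 4 control libraries (blue) and 5 mutant libraries (red). Control and mutant libraries do not overlap for Atf4, Atf3, Ddit3, Nupr1 and Cebpg, and they overlap for Atf5, Cebpb and Cebpd.

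The libraries held 21040536 to 23986458 counts. Uqcrq, the targeted gene, fell in every mutant library, from 94.1 ± 13.3 CPM in controls to 21.3 ± 4.45 CPM in mutants (SD, n = 4 and 5), with a log2 fold change of -2.14 (SE 0.16, adjusted p = 2.09e-05, edgeR). Six2, which marks the sorted cells, was at 571 ± 53.4 CPM in controls and 704 ± 102 CPM in mutants (adjusted p = 0.131), and none of 12 nephron progenitor markers tested was past the threshold in either direction. Markers of other cells moved between the genotypes. Of 11 stromal markers tested, 6 were higher in mutants and none lower, and their summed level was 161 to 243 CPM in controls and 331 to 896 CPM in mutants (2-sided exact permutation test, p = 0.00794). Pdgfra, a receptor of mesenchymal cells, rose from 4.14 ± 2.24 to 52.4 ± 38.4 CPM (log2 fold change 3.66, adjusted p = 0.00623, edgeR), and the log2 fold changes of Col3a1, Col1a1 and Acta2 were 2.44, 1.89 and 1.38. Of 10 myeloid markers tested, 3 were higher (Fcer1g, Tyrobp and Mrc1), and the summed level was 0.548 to 19.2 CPM in controls and 13.0 to 192 CPM in mutants (exact permutation p = 0.0238). Ptprc, which encodes the leukocyte antigen CD45, had no reads in control 71 and at most 52 in any library, Emr1, which encodes the macrophage antigen F4/80, had no reads in controls 71 and 73, and Cx3cr1 was too low to be tested. Of 5 endothelial markers tested, Pecam1 was higher and Plvap lower, with log2 fold changes of 2.42 and -1.88, and the summed level was lower in every mutant, at 7.67 to 14.9 CPM, than in every control, at 16.4 to 24.7 CPM (exact permutation p = 0.0159). No ureteric bud or erythroid marker was past the threshold (summed levels, exact permutation p = 0.794 and 0.452). The part of these other cells in the changes of the regulators was not tested.

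Atf4 (ENSMUSG00000042406, chr15:80255184-80257540, plus strand), the central regulator of the network, was at 204, 168, 189 and 207 CPM in controls 71, 72, 73 and 76. In mutants 74, 75, 77, 78 and 79 it was at 295, 461, 580, 482 and 448 CPM. The groups did not overlap, and mutant 74 was the lowest of the mutants while the controls lay close together. The means were 192 ± 17.8 CPM in controls and 453 ± 103 CPM in mutants, a log2 fold change of 1.24 (SE 0.17, adjusted p = 0.000857, edgeR). The exact permutation test on log2 CPM gave p = 0.0159, where 0.00794 is the smallest value that 126 splits allow.

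Ddit3 (ENSMUSG00000025408, chr10:127290774-127296288, plus strand) encodes CHOP, a C/EBP family member that dimerizes with other C/EBP proteins and takes part in stress-induced apoptosis. It was at 57.5, 31.7, 37.1 and 51.5 CPM in controls 71, 72, 73 and 76, and at 130, 136, 136, 140 and 166 CPM in mutants 74, 75, 77, 78 and 79. The mutants were close to one another, with a coefficient of variation of 9.99% compared with 27.1% in the controls, and every one of them exceeded the highest control. The mean rose from 44.4 ± 12.1 to 142 ± 14.2 CPM, a log2 fold change of 1.67 (SE 0.17, adjusted p = 0.000271, edgeR, and exact permutation p = 0.00794). Ddit3 shares 68 exonic bases with Mars on the opposite strand, and reads carried no strand information. Mars had 2454 to 4564 reads per library, the most in mutant 79, where Ddit3 was also highest. The part of Mars in the counts of Ddit3 was not tested.

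Nupr1 (ENSMUSG00000030717, chr7:126623249-126630861, minus strand) encodes a small stress-induced chromatin protein that acts as a transcriptional co-regulator. It was nearly silent in controls, with 61 to 147 reads per library, and was at 6.26, 2.73, 2.57 and 4.18 CPM in controls 71, 72, 73 and 76. In mutants 74, 75, 77, 78 and 79 it was at 43.3, 97.1, 127, 69.7 and 142 CPM, from 1015 to 3128 reads. The lowest mutant was several times the highest control, although the mutants spanned a 3.28-fold range. Nupr1 rose from 3.93 ± 1.71 to 95.8 ± 40.5 CPM, a log2 fold change of 4.61 (SE 0.40, adjusted p = 0.00012, edgeR, and exact permutation p = 0.00794). This was the largest fold change among the 1536 genes past the threshold whose mean level was 10 CPM or more, and the seventh largest among all 14990 genes tested.

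Atf3 (ENSMUSG00000026628, chr1:191170296-191183340, minus strand) encodes a bZIP repressor that is induced by ATF4 and also as an immediate early gene. It was at 4.18, 3.54, 2.95 and 4.09 CPM in controls 71, 72, 73 and 76, and at 29.9, 20.3, 8.26, 22.5 and 10.4 CPM in mutants 74, 75, 77, 78 and 79. The mutants fell into higher values in 74, 75 and 78 and lower values in 77 and 79, and all were above the controls. The mean rose from 3.69 ± 0.568 to 18.3 ± 8.93 CPM, a log2 fold change of 2.31 (SE 0.35, adjusted p = 0.00172, edgeR, and exact permutation p = 0.0159). The reads behind these values were 70 to 98 per control and 162 to 701 per mutant library.

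Atf5 (ENSMUSG00000038539, chr7:44812257-44816658, minus strand), a close relative of ATF4 with a known role in the mitochondrial unfolded protein response, was the lowest of the network in both genotypes. It was at 2.73, 1.67, 1.94 and 1.01 CPM in controls 71, 72, 73 and 76 and at 5.50, 1.51, 2.14, 2.80 and 5.04 CPM in mutants 74, 75, 77, 78 and 79. Mutants 74, 78 and 79 were above all controls, 78 by a narrow margin, and mutant 75 was below 3 of the 4 controls. The log2 fold change was 0.89 (SE 0.42, adjusted p = 0.166, edgeR, and exact permutation p = 0.159). The difference did not exceed the spread between libraries, which held 24 to 64 reads in controls and 34 to 129 in mutants. With 1 surrogate variable in the fit the log2 fold change was 1.13 and the adjusted p was 0.0473. Atf5 also shares 82 exonic bases with Nup62 on the opposite strand, which had 1892 to 3876 reads per library.

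The 3 C/EBP genes differed in how evenly they rose. Cebpg (ENSMUSG00000056216, chr7:35046422-35056503, minus strand), which encodes a widely expressed dimer partner of ATF4, was at 60.0, 53.4, 57.7 and 56.9 CPM in controls 71, 72, 73 and 76. In mutants 74, 75, 77, 78 and 79 it was at 86.1, 77.6, 94.3, 78.4 and 102 CPM. This was the smallest rise of the network and among the most even, without overlap, from 57.0 ± 2.76 to 87.7 ± 10.6 CPM, a log2 fold change of 0.62 (SE 0.12, adjusted p = 0.00516, edgeR, and exact permutation p = 0.00794).

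Cebpb (ENSMUSG00000056501, chr2:167688915-167690418, plus strand), a regulator in inflammation, fat cell differentiation and the stress response, was at 15.1, 16.6, 15.2 and 10.5 CPM in controls 71, 72, 73 and 76. It was at 31.5, 29.1, 17.4, 38.9 and 16.2 CPM in mutants 74, 75, 77, 78 and 79. Mutants 74, 75 and 78 were well above the controls, and mutants 77 and 79 lay at their upper end. The mean rose from 14.3 ± 2.64 to 26.6 ± 9.67 CPM, a log2 fold change of 0.89 (SE 0.25, adjusted p = 0.0331, edgeR, and exact permutation p = 0.0556). The call was lost without control 71, 72, 73 or 76 or without mutant 75 or 78, the adjusted p over the libraries left out in turn being 0.0183 to 0.0819. Cebpb shares 312 exonic bases with Tmem189 on the opposite strand, which had 646 to 911 reads per library.

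Cebpd (chr16:15887286-15888466, plus strand) encodes a C/EBP protein induced in acute phase and inflammatory responses. It was at 6.73, 4.98, 3.92 and 6.50 CPM in controls 71, 72, 73 and 76 and at 15.6, 16.9, 6.38, 9.25 and 8.58 CPM in mutants 74, 75, 77, 78 and 79. Mutants 74 and 75 were the highest, and mutant 77 was below controls 71 and 76. The mean rose from 5.53 ± 1.33 to 11.3 ± 4.63 CPM, a log2 fold change of 1.04 (SE 0.30, adjusted p = 0.0351, edgeR, and exact permutation p = 0.0317), and the call was lost without control 71, 72 or 73 or mutant 75 (adjusted p 0.0203 to 0.112 over the libraries left out in turn). Of the C/EBP genes outside the network, Cebpa was near silent, at 0.381 ± 0.236 CPM in controls and 0.440 ± 0.243 CPM in mutants (adjusted p = 0.865), and Cebpe was not analysed here.

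**Figure D2:**
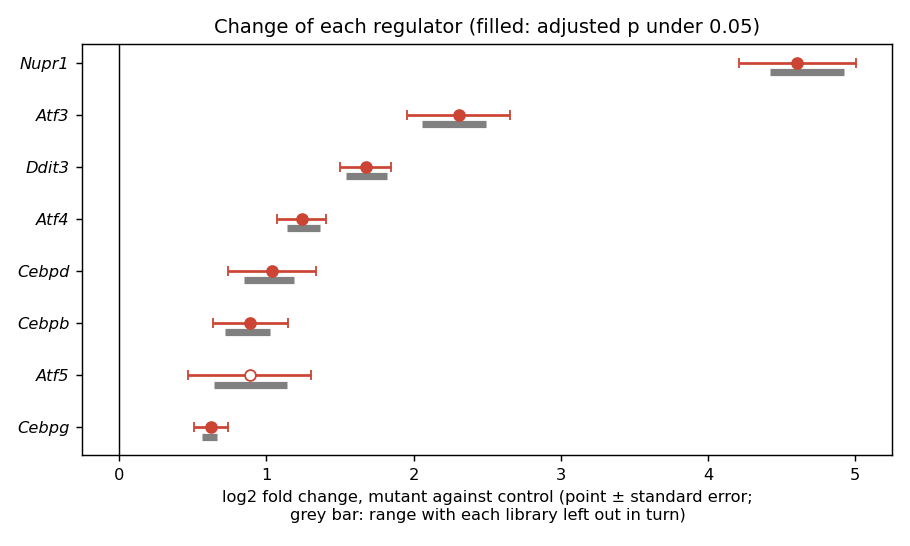
Log2 fold change of each regulator, mutant against control, as the edgeR estimate with its standard error (points filled where the adjusted p is under 0.05), and the range of the estimate with each library left out in turn (grey bars). The points run from 0.62 for Cebpg to 4.61 for Nupr1, the Atf5 point is open, and all grey bars lie above 0.

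Levels of different genes were compared as FPKM, which divides by the gene length that the authors used. For Cebpd this length was 1180 bases, and the authors' gene ends at chr16:15888466 where that of GENCODE M21 ends at 15891031. How the order of the genes depends on these lengths was not tested. In controls Atf4 was the most abundant message, at 115 ± 6.78 FPKM, followed by Ddit3 at 47.2 ± 11.3, Cebpg at 12.7 ± 0.381, Cebpb at 9.92 ± 2.08 and Cebpd at 4.84 ± 1.03 FPKM. Atf3 at 1.92 ± 0.252, Nupr1 at 1.65 ± 0.671 and Atf5 at 1.05 ± 0.392 FPKM closed the order, and within these 3 the neighbours overlapped between libraries. All other neighbours in the control order were apart.

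In mutants Atf4 and Ddit3 kept the upper places, at 253 ± 49.3 and 142 ± 17.8 FPKM. Nupr1 moved from place 7 to place 3, at 37.9 ± 16.2 FPKM. Cebpg at 18.4 ± 2.73, Cebpb at 17.1 ± 6.15, Cebpd at 9.38 ± 3.94 and Atf3 at 8.99 ± 4.63 FPKM followed, and Atf5 was again last at 1.85 ± 1.05 FPKM. From Nupr1 down to Atf3 each neighbour overlapped the next, although the lowest mutant library of Nupr1 and of Cebpg, at 18.2 and 15.7 FPKM, exceeded the highest of Cebpd at 13.7 and of Atf3 at 15.5 FPKM.

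**Figure D3:**
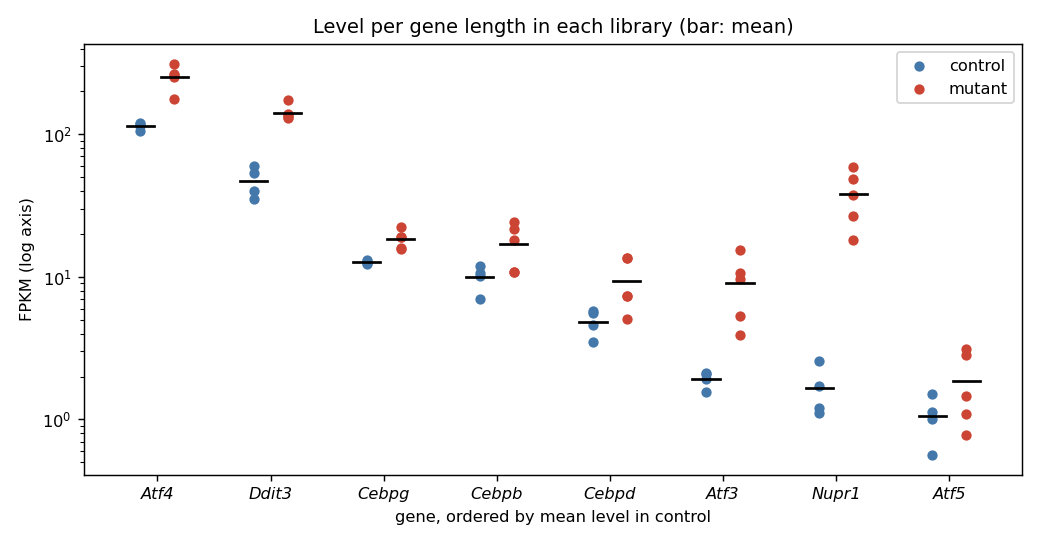
Level of each regulator per gene length, in FPKM on a log axis, in each control (blue) and mutant (red) library, with the mean as a bar and the genes ordered by their control mean. Nupr1 sits with Atf3 and Atf5 at the low end in controls, at 1.65 FPKM, and in mutants its mean of 37.9 FPKM is exceeded by Atf4 and Ddit3.

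To see whether the other regulators rose by the amount of Atf4, each was divided by Atf4 within a library. The ratio of Nupr1 to Atf4 was 0.0308, 0.0163, 0.0136 and 0.0202 in controls 71, 72, 73 and 76, and 0.147, 0.211, 0.219, 0.145 and 0.317 in mutants 74, 75, 77, 78 and 79, so the groups were apart. Its log2 value rose by 3.37, a 10.3-fold difference (2-sided exact permutation test, p = 0.00794), and the value adjusted over 7 ratios was 0.0556, which is the smallest that a single ratio could reach.

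The ratio of Cebpg to Atf4 was lower in mutants, with a log2 difference of -0.60 (exact permutation p = 0.0317, adjusted 0.111), and the ratio of Ddit3 was higher, with 0.50 (exact permutation p = 0.0714, adjusted 0.167), in both cases with overlapping libraries. The log2 differences of the remaining ratios were 0.95 for Atf3, -0.24 for Cebpd, -0.38 for Cebpb and -0.41 for Atf5, with exact permutation p values adjusted over 7 ratios of 0.208 to 0.643. No ratio was therefore past the threshold after adjustment.

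Across the mutant libraries the regulators deviated from their means in different orders. Each library was compared with the mean log2 CPM of its own genotype, and no correlation was computed, since the genotypes held 4 and 5 libraries. Atf3 deviated by 0.87, 0.31, -0.98, 0.46 and -0.65 in mutants 74, 75, 77, 78 and 79, and Cebpb by 0.32, 0.21, -0.53, 0.63 and -0.64. Both were thus above their mean in 74, 75 and 78 and below it in 77 and 79, the same side in 5 of 5 mutants. Cebpd, with 0.56, 0.67, -0.73, -0.20 and -0.30, shared the side of Atf3 in 4 of 5 mutants and that of Cebpb also in 4.

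Nupr1 followed another order, with deviations of -1.02, 0.14, 0.53, -0.34 and 0.69 in the same 5 mutants. It shared a side with Atf4 in 4 of 5, with Cebpg in 4 and with Atf3 in 1. Cebpg, with -0.02, -0.17, 0.11, -0.15 and 0.23, was on the opposite side to Atf3 and to Cebpb in every mutant. In mutant 74 it lay almost on its mean. These counts were picked from all pairs of the regulators over only 5 mutants, and were not tested against chance. Mutant 74 showed the contrast most clearly, since it held the highest Atf3 and Atf5 and the lowest Atf4, Ddit3 and Nupr1 of the mutants. Mutant 79 held the highest Ddit3, Nupr1 and Cebpg and the lowest Cebpb, whereas mutant 77 held the highest Atf4 and the lowest Atf3 and Cebpd.

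The ratio of Atf3 to Nupr1 in CPM is built from the same values, so it describes this division and is not separate evidence of it. It was 0.667, 1.30, 1.15 and 0.980 in controls 71, 72, 73 and 76. In the mutants it ran from 0.691 in 74 through 0.323 in 78 and 0.209 in 75 to 0.0732 in 79 and 0.0650 in 77. Mutant 74 thus lay within the range of the controls, and the other 4 mutants lay below it.

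Among controls the pattern differed. Control 71 was above the control mean for 8 of 8 regulators and was the highest control for 6 of them. Atf4, Atf3, Nupr1, Ddit3 and Cebpd were on the same side of their means as one another in 4 of 4 controls, and Atf3 shared the side of Cebpb in 1 of 4. Atf5, Atf3, Nupr1 and Cebpd rested on 24 to 158 reads per control library.

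**Figure D4:**
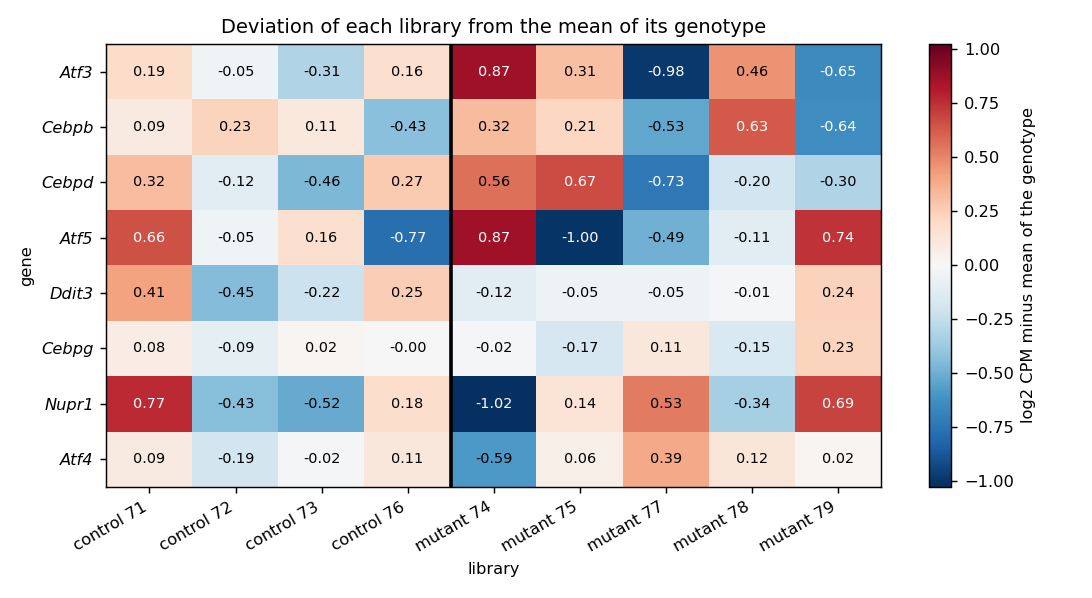
Deviation of each library (columns) from the mean log2 CPM of its genotype for each regulator (rows), with red above and blue below the mean and a black line between controls and mutants. Atf3 and Cebpb are both red in mutants 74, 75 and 78 and both blue in 77 and 79, while Nupr1 is at its lowest, -1.02, in mutant 74.

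Values that varied in the same libraries are given beside this division. The summed level of 20 immediate early genes, which are induced within minutes by many stimuli including tissue dissociation, was 1691, 2239 and 1294 CPM in mutants 74, 75 and 78 and 1067 and 1002 CPM in mutants 77 and 79. The 3 mutants with the higher Atf3 and Cebpb were therefore those with the higher immediate early sum. In controls this sum was 3855, 4631 and 4743 CPM in 71, 72 and 73 and 1213 CPM in 76, where Cebpb was at its lowest and Atf3 was not. The summed myeloid markers were lowest in mutant 74 at 13.0 CPM and highest in mutant 77 at 192 CPM, and the summed stromal markers were highest in 75 and 74, at 896 and 581 CPM, where Cebpd was also highest. The part of these in the division was not tested.

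By the root mean square difference of centred log2 CPM over the 9 libraries, the gene nearest to each regulator was sought among 9343 genes whose mean level was 10 CPM or more. Slc3a2, an amino acid transporter subunit, was nearest to Atf4 with a difference of 0.0801, followed by Siah2, a ubiquitin ligase, with 0.143. Eif4ebp1, a translation repressor, and Mcoln3, an ion channel of endosomes, were nearest to Ddit3 with 0.174 and 0.222. Slc7a3, a cationic amino acid transporter, and Asns were nearest to Nupr1 with 0.767 and 0.930. This measure includes the size of the difference between genotypes, in which no gene of this level past the threshold exceeded Nupr1.

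For Cebpg the nearest were Pabpc4, a poly(A) binding protein, and Sars, a seryl-tRNA synthetase, with 0.0788 and 0.107. For Cebpb they were Gadd45a, a growth arrest gene, and Tubb6, a tubulin, with 0.243 and 0.265, and Tubb6 was also the nearest to Cebpd, with 0.286, together with Tgfb1i1, a focal adhesion adaptor. For Atf3 they were Serpina3g, a protease inhibitor, and Plagl1, a zinc finger regulator, with 0.386 and 0.442.

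Most of the ATF4 target genes listed by hand were higher in mutants, compared with 7.82% of all genes tested. The list was written with earlier results of these data known. Ppp1r15a, a target given below with the eIF2 genes, was not in it. Of 33 such genes, all tested, 27 were higher in mutants, none was lower and 6 did not pass (Ddit4, Phgdh, Pck2, Slc7a11, Vldlr and Wars), with a median log2 fold change of 1.12. Slc7a3 rose from 7.11 ± 2.43 to 76.9 ± 30.9 CPM, Chac1 from 5.48 ± 1.6 to 40.8 ± 13.2, Trib3, a pseudokinase that dampens ATF4 and CHOP activity, from 3.31 ± 1.6 to 24.3 ± 9.36, and Asns from 39.4 ± 8.23 to 285 ± 85.8 CPM. Their log2 fold changes were 3.43, 2.90, 2.88 and 2.85 (SE 0.35, 0.27, 0.35 and 0.24, adjusted p = 0.000275, 0.00014, 0.000525 and 6.88e-05, edgeR), and none had overlapping libraries. The summed level of the list was 3395 to 3666 CPM in controls and 5521 to 7647 CPM in mutants. Ddit4, an inhibitor of mTORC1, had a log2 fold change of -0.51 (adjusted p = 0.366) and Wars, a tryptophanyl-tRNA synthetase, of -0.01 (adjusted p = 0.983).

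Of 12 genes for eIF2 kinases, phosphatase subunits and regulators, which act upstream of ATF4, Ppp1r15b was higher, Oma1 lower and 10 did not pass, with a median log2 fold change of -0.03. Over all genes tested 14.8% passed, and in this list 3 genes were higher without mutant 74, and limma-voom called 3 higher and 3 lower. Ppp1r15b, the constitutive targeting subunit of the eIF2 phosphatase, rose from 27.1 ± 3.61 to 61.0 ± 12.5 CPM (log2 fold change 1.17, SE 0.17, adjusted p = 0.00117, edgeR). Ppp1r15a, the stress-inducible subunit and a known target of the network, was at 99.1 ± 18.2 CPM in controls and 97.5 ± 14.4 CPM in mutants (log2 fold change -0.02, adjusted p = 0.933). Oma1, a mitochondrial protease that can relay mitochondrial stress to ATF4, fell from 40.3 ± 6.99 to 26.7 ± 4.88 CPM (log2 fold change -0.59, SE 0.17, adjusted p = 0.0317), and this call was lost without control 71, 72 or 73 or mutant 78. The 4 eIF2 kinase genes Eif2ak1, Eif2ak2, Eif2ak3 and Eif2ak4 had log2 fold changes of 0.06, -0.59, -0.21 and -0.11 (adjusted p = 0.728, 0.0713, 0.545 and 0.755).

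Another list held 16 tested targets of CHOP and genes of the unfolded protein response of the endoplasmic reticulum. Of these, 5 were higher (Herpud1, Dnajb9, Tnfrsf10b, Bcl2l11 and Ern1), Sdf2l1 was lower and 10 did not pass, and the median log2 fold change was 0.20. Over all genes tested 7.82% were higher and 7.02% lower. Herpud1, a component of protein degradation at the endoplasmic reticulum, rose from 147 ± 19.7 to 337 ± 82.6 CPM (log2 fold change 1.20, SE 0.18, adjusted p = 0.00175, edgeR). Tnfrsf10b, a death receptor, rose from 6.84 ± 0.593 to 12.7 ± 1.42 CPM (log2 fold change 0.90, adjusted p = 0.00571), and Dnajb9, a chaperone cofactor, from 25.2 ± 6.42 to 53.0 ± 20.2 CPM (log2 fold change 1.07, adjusted p = 0.0246). Sdf2l1, a luminal chaperone partner, fell from 60.9 ± 11.1 to 32.8 ± 5.64 CPM (log2 fold change -0.89, adjusted p = 0.00405). Hspa5, the main chaperone of the compartment, was at 1373 ± 189 CPM in controls and 1521 ± 232 CPM in mutants (adjusted p = 0.511). The number of higher genes was 3 without control 71 or 73 or without mutant 75, 77 or 78, and 3 with 1 surrogate variable.

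Among 40 tested bZIP genes outside the network, 9 were higher, 3 lower and 28 not past the threshold, with a median log2 fold change of 0.20. This list shares Atf6 and Xbp1 with the endoplasmic reticulum list, and Fos, Fosb, Jun and Junb with the immediate early genes below. Fosb and Jun are therefore counted as lower in both of the latter lists. Over all genes tested 7.82% were higher and 7.02% lower, so the number of lower bZIP genes was near the share of all genes. Maf rose from 34.9 ± 11.3 to 79.4 ± 17.8 CPM (log2 fold change 1.19, SE 0.22, adjusted p = 0.00521, edgeR). Nfe2 fell from 17.0 ± 2.75 to 8.84 ± 1.41 CPM (log2 fold change -0.94, adjusted p = 0.0061), Fosb from 19.0 ± 10.3 to 6.17 ± 2.62 CPM (-1.62, adjusted p = 0.0339) and Jun from 180 ± 96.3 to 81.5 ± 9.41 CPM (-1.14, adjusted p = 0.0488). Control 76 was the lowest control for both Fosb and Jun, and for both genes the genotypes overlapped. Without control 76 the number of lower bZIP genes was 6, and it was 1 without control 71, 72 or 73 or without mutant 77, 78 or 79. The number of higher genes was 5 without control 73.

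While Atf3 rose, several of the immediate early genes with which it is often listed fell. Of 19 tested, 5 were lower in mutants (Fosb, Jun, Ier2, Btg2 and Socs3), Klf2 and Klf6 were higher and 12 did not pass. The median log2 fold change of the list was -0.999. Over all genes tested 7.02% were lower and 7.82% higher. Ier2 fell from 760 ± 277 to 245 ± 91.1 CPM (log2 fold change -1.63, SE 0.29, adjusted p = 0.00431, edgeR), Socs3, a cytokine signalling inhibitor, from 110 ± 46.3 to 35.4 ± 17.5 CPM (-1.64, adjusted p = 0.0163) and Btg2, an antiproliferative gene, from 222 ± 96.8 to 93.2 ± 35.4 CPM (-1.25, adjusted p = 0.0301). Fos was at 642 ± 371 CPM in controls and 196 ± 114 CPM in mutants (adjusted p = 0.123). Without control 76, the control with the low immediate early sum, 9 genes of the list were lower, and without each of the other controls or without mutant 74, 77, 78 or 79 the number was 1 to 3.

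**Figure D5:**
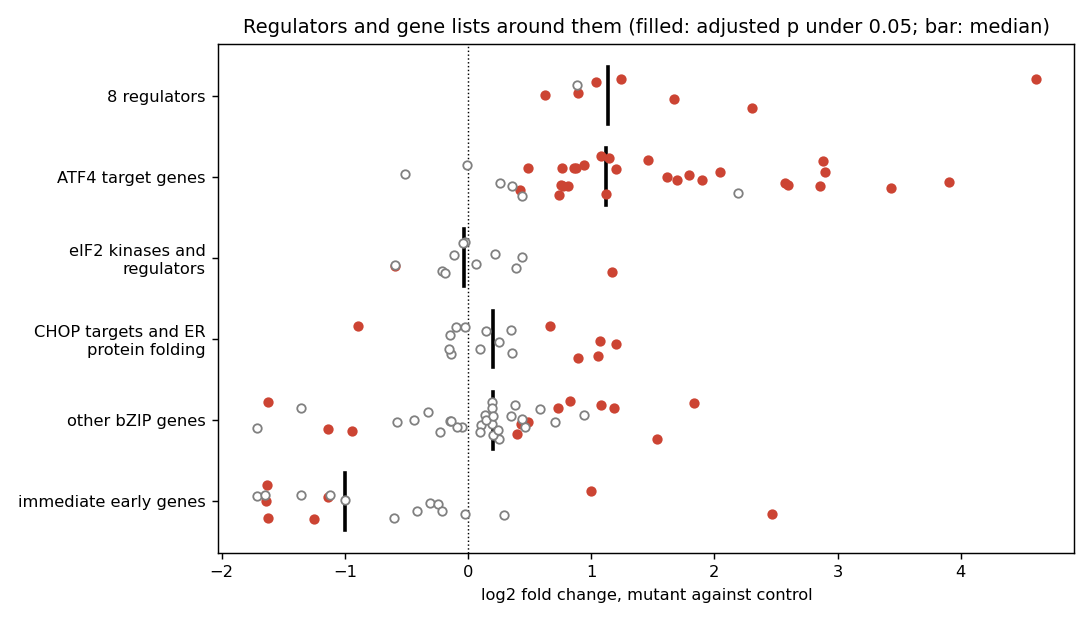
Log2 fold change of each tested gene, mutant against control (edgeR), for the 8 regulators, 33 ATF4 target genes, 12 genes of eIF2 kinases and regulators, 16 CHOP target and endoplasmic reticulum genes, 40 other bZIP genes and 19 immediate early genes, with filled points where the adjusted p is under 0.05 and a bar at the median of each list. The regulators and the ATF4 targets have medians of 1.14 and 1.12, and the immediate early genes of -0.999. The lists share some genes, such as Fosb and Jun.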

How the data were processed

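The authors deposited 1 column of read counts per gene for every library, and per the labels the submitters' processing notes name STAR, DESeq2 and mm10, with versions not given in the sources used here. Per the labels, cDNA from few cells was amplified, poly(A) selected and sequenced without strand. The authors also deposited FPKM values, and those recomputed from counts, gene length and library totals were within 1% for 100% of values above 0. Deposited columns of genotype means, log2 fold changes and p-values were not used.

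The counts were fitted in R 4.3.3 with edgeR 4.0.16 (filterByExpr, TMM, robust quasi-likelihood test, Benjamini-Hochberg over 14990 genes), in a procedure tested on simulated data. Levels are CPM of the TMM-scaled library, as mean ± SD. Standard errors were derived from the F statistic (the estimate over its square root). For single values, exact permutation tests (2-sided) ran over 126 splits. Library totals were 21040536 to 23986458 counts. Since cDNA from few cells was amplified, these totals do not show how large the sampling error was. No libraries held identical values.

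The 8 genes, the lists and the tests were chosen with earlier results of these data known, so list counts are not independent evidence. Named were the 8 genes, Uqcrq, Cebpa and Cebpe, the 2 nearest genes of each regulator past the threshold, and per list the 4 largest changes past the threshold among genes averaging 10 CPM or more. Other names, such as Ppp1r15a, Hspa5, Fos, Ddit4 and Wars, or genes that complete a count, were added after their values were seen. Genes were matched by symbol. The identifier beside Cebpd in the table is not the one that GENCODE M21 gives for Cebpd, so Cebpd was matched by symbol and coordinates. The table also types this row as a pseudogene, whereas GENCODE M21 has a protein-coding gene there. The identifiers of the other 7 regulators matched GENCODE M21. Over the whole table, identifier and symbol matched GENCODE M21 together in 16163 of 26858 rows. Genes other than the regulators were matched by symbol alone. Promoters came from RefSeq (GRCm38.p6). Alternatives were DESeq2 1.42.0, limma-voom (limma 3.58.1), sva 3.50.0, RLE and upper-quartile normalization, other count filters (among them at least 10 counts in every library), a pseudocount of 0.5 for the ratios to Atf4, CPM of plain library totals for the permutation tests, and each library left out in turn. Figures were drawn with Python 3.11.15 and matplotlib 3.10.9.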

Additional observations from a re-analysis of the deposited data

Results flagged for a closer look

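Ddit3 in mutant 79, at 166 CPM, stood apart from the other mutants, the nearest of which was at 140 CPM. The gap was 0.717 of the range of the mutants, past Dixon's 95% critical value for 5 samples. Each regulator was examined in both genotypes, 16 groups in all, and chance alone gives such a value in about 1 in 20 groups. Without mutant 79 the log2 fold change of Ddit3 was 1.61 (adjusted p = 0.000925, edgeR), compared with 1.67 with all libraries.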

How the results depend on the processing

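With each library left out in turn, Atf4, Atf3, Ddit3, Nupr1 and Cebpg stayed past the threshold, with log2 fold changes of 1.14 to 1.36, 2.06 to 2.49, 1.54 to 1.82, 4.42 to 4.92 and 0.56 to 0.66. Cebpb (0.72 to 1.03) and Cebpd (0.85 to 1.19) lost it as stated in the report, and 5 to 7 regulators were higher. Atf5, at 0.64 to 1.14 with libraries left out, passed with 1 surrogate variable (1.13). The change of the ratio of Cebpd to Atf4 turned to 0.0378 without mutant replicate 77 (range -0.53 to 0.0378). The cause of these changes was not tested.

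ATF4 targets past the threshold numbered 23 to 29 over all alternatives. For eIF2 genes, the number higher was 3 by limma-voom, 2 with 1 surrogate variable and 1 to 3 with libraries left out, and the number lower was 2 by DESeq2, 3 by limma-voom and 0 to 1 with libraries left out. Higher CHOP and endoplasmic reticulum genes numbered 3 with 1 surrogate variable and 3 to 5 with libraries left out. Higher bZIP genes numbered 5 to 10 with libraries left out, and lower ones 5 by DESeq2, 7 by limma-voom, 1 without the expression filter, 1 with 1 surrogate variable and 1 to 6 with libraries left out. Lower immediate early genes numbered 10 by limma-voom, 1 without the filter, 1 with 1 surrogate variable and 1 to 9 with libraries left out.

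Over all genes 2225 passed, 4868 by limma-voom and 1046 to 3136 with libraries left out. No paired analysis was possible because litter was not given and the library numbers do not name pairs. With CPM of plain library totals the exact permutation p was 0.0794 for Cebpb and 0.0476 for Cebpd. Atf5 had the fewest reads, 24 to 129 per library.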
